A study of Mus musculus with 8 samples.

Results

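Sirpa-rich, Cd4-poor, low-proliferation tissue was described in 8 sections of mouse brain hemisphere bearing GL261 glioma, a mouse glioma line that grows in the brains of syngeneic mice. Transcripts of 100 genes had been located one molecule at a time by Resolve single-molecule fluorescence in situ hybridization. Every mouse had been implanted with GL261 cells, had been treated 4 times by intracranial injection, and was sacrificed on day 21. The groups were CpG-STAT3ASO plus anti-PD1 (called the combination), CpG-STAT3ASO alone, anti-PD1 alone and PBS, with 2 sections each. CpG-STAT3ASO joins a CpG oligonucleotide, a ligand of the endosomal receptor Tlr9, to an antisense oligonucleotide against Stat3, and anti-PD1 is an antibody that blocks a receptor of T cells. Strain, age, sex, the number of animals, the section level and the pixel size are not stated in any source at hand. The labels do not say that the 2 sections of a group come from separate animals, so every p-value below measures only the spread between these sections.

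Each section was divided into square bins of 360 pixels. A bin belonged to the tissue described here when it held at least 20 gene molecules, under 10 of Mki67 plus Birc5, 100 or more of Sirpa, under 10 of Cd4, under 30 of Adgre1 plus Cd68 and under 30 of Cxcl9 plus Cxcl10. The bins were thus chosen by their measured molecules of these 8 genes. These limits were met by 3183 of 18080 tissue bins, and by 3183 of the 10721 bins with few Mki67 and Birc5 molecules. A further 2215 bins met every limit but that on Cd4, and are called Cd4-rich bins. A bin can hold several cells of different types, and neighbouring bins of a section share their source, so bins were never counted as replicates. The values of the 8 genes used to choose the bins are given as a description and were not tested.

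Sirpa encodes SIRPα, a membrane receptor with inhibitory motifs that is found on myeloid cells and is also abundant on neurons. Its ligand Cd47 is carried by most cells, and the contact of the pair restrains phagocytosis. Crbn encodes cereblon, the substrate receptor of a ubiquitin ligase and the target of thalidomide-type drugs, first known from a form of intellectual disability in humans. No neuron, oligodendrocyte or astrocyte marker of the lists used here is on the panel, so the name brain parenchyma was checked on Sirpa and Crbn alone.

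Of the 2 genes that stand for the label, Sirpa was used to choose the bins and Crbn was not. Crbn averaged 43.4 ± 5.31 molecules per bin in the Sirpa-rich, Cd4-poor bins (SD, n = 8 sections), against 31.3 in Cd4-rich bins and 13.6 in the other low-proliferation bins. It was higher than in the Cd4-rich bins of the same section in 8 of 8 sections. Crbn followed Sirpa from bin to bin (median Spearman correlation 0.78), so its level is not independent of the Sirpa limit. Against the other low-proliferation bins, Cd47 (127 against 52.9 molecules per bin), Dnmt3a (39.3 against 19.6) and Vegfa (36.0 against 15.5) were higher as well. The difference in Crbn is thus no separate check of the label. Bins with 100 or more Mki67 plus Birc5 molecules, called dense, were not all lower in Crbn. With anti-PD1 the Sirpa-rich, Cd4-poor bins held 44.3 and 44.9 Crbn molecules per bin and the dense bins 40.8 and 50.4, and with PBS 39.9 and 44.7 against 30.1 and 32.8. In the sections given CpG-STAT3ASO the dense bins held 15.1 to 23.6. Sirpa showed the opposite, at 16.98 to 32.5 molecules per dense bin without CpG-STAT3ASO and 98.3 to 130 with it. In the chosen bins Sirpa stood at 234 and 278 in the combination sections, 195 and 248 with CpG-STAT3ASO, 248 and 257 with anti-PD1 and 216 and 287 with PBS, so the groups overlapped. The other genes of the rule were low in these bins by choice, with 0.359 to 1.36 Cd4, 2.65 to 7.52 Cd68, 0.805 to 4.14 Adgre1 and 0.160 to 5.78 Cxcl10 molecules per bin over the 8 sections.

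The tissue held 618 and 113 bins in the combination sections, 493 and 712 with CpG-STAT3ASO, 159 and 506 with anti-PD1, and 295 and 287 with PBS. This was 28.4 and 4.70% of the tissue bins in the combination sections, 21.1 and 32.3% with CpG-STAT3ASO, 7.15 and 21.5% with anti-PD1 and 13.3 and 13.3% with PBS. The combination and anti-PD1 pairs each spread more widely than the group means differed, and the combination range overlapped those of all other groups. Both CpG-STAT3ASO sections lay above both PBS sections. In combination replicate 2 only 9.82% of the bins with 100 or more Sirpa molecules met the other limits, against 19.8 to 61.7% in the other 7 sections. Of its 1151 such bins, 577 failed on Mki67 plus Birc5, 488 on Adgre1 plus Cd68, 482 on Cxcl9 plus Cxcl10 and 421 on Cd4, and a bin could fail on several.

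**Figure D1:**
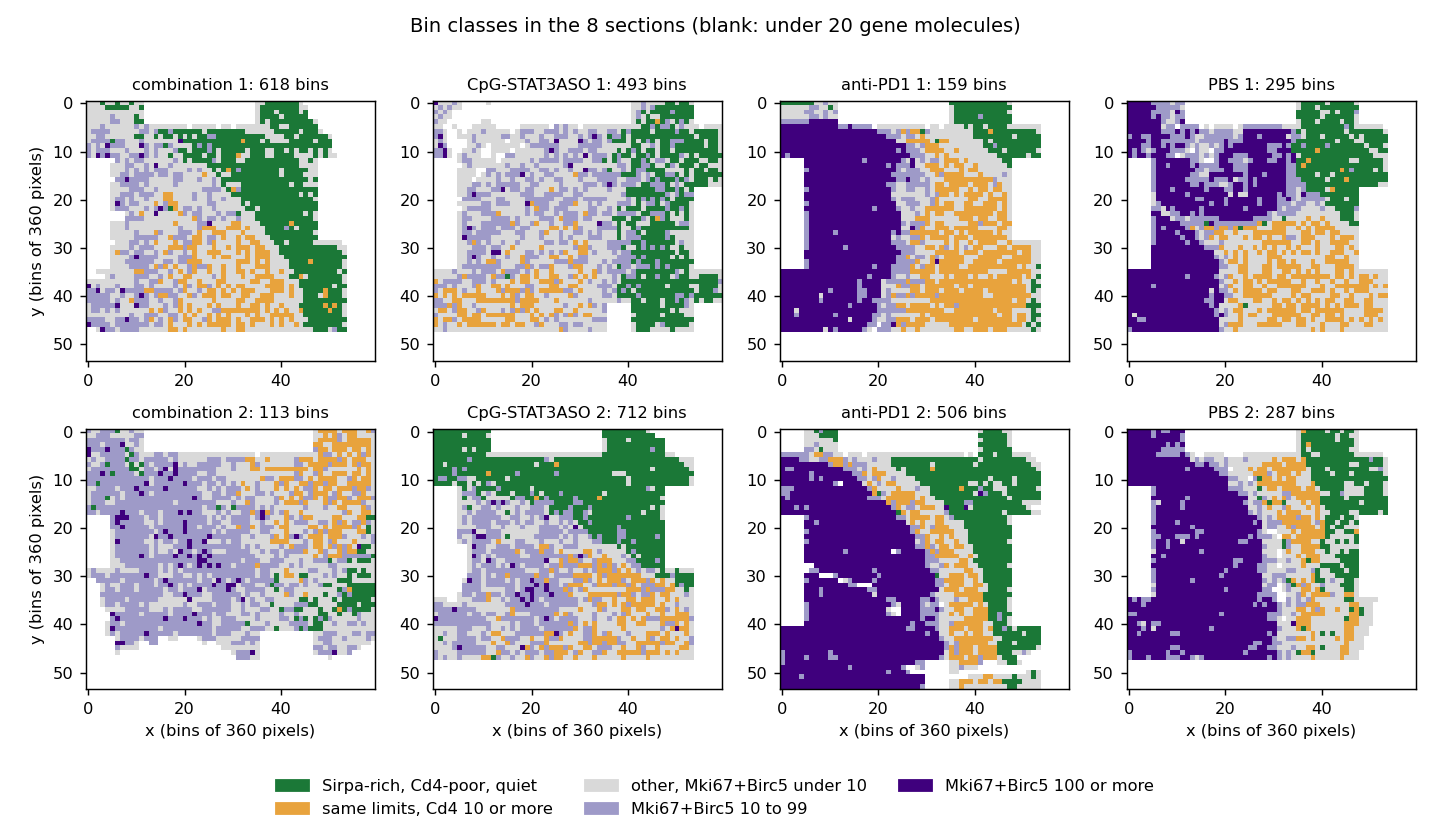
Maps of the 8 sections in bins of 360 pixels, with x and y in bins and blank bins holding under 20 gene molecules. The Sirpa-rich, Cd4-poor bins (green, 113 to 712 per section) lie mostly in 1 block at one side of the imaged area, while in combination replicate 2, with 44.2% in the largest patch, they are interspersed with other bins.

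The bins formed a compact region in 7 of the 8 sections. The largest connected patch took in 77.4 to 98.3% of the bins in 7 sections, and 44.2% in combination replicate 2. Of the 4 neighbours that share an edge with a bin, 63.7 to 83.1% on average belonged to the same tissue in those 7 sections. In combination replicate 2 this was 37.6%. Cd4-rich bins made up only 0.254 to 5.14% of these edge neighbours, although both kinds of bin lay in the same low-proliferation tissue. The median distance to the nearest dense bin ran from 7 bins in anti-PD1 replicate 2 to 18 bins in anti-PD1 replicate 1.

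At the Sirpa limit, the 270 bins up to 20 molecules above it held 58.4 Cd47 and 21.8 Crbn molecules per bin when pooled over sections, and the 285 bins up to 20 molecules below it held 50.1 and 17.9. Crbn was higher above this limit in 8 of 8 sections. At the Cd4 limit, the 184 bins with 5 to 9 Cd4 molecules held 39.7 Crbn and 253 Sirpa molecules per bin, and the 85 bins with 10 to 14 Cd4 molecules held 29.98 and 188. Sections enter these pools unequally, and Crbn was higher inside the Cd4 limit in 6 of 8 sections. It was lower inside in combination replicate 1 (41.2 against 42.3) and in CpG-STAT3ASO replicate 2 (38.0 against 50.3, with 4 bins outside). S1pr1 had 26.1 molecules per bin inside and 31.9 outside the Cd4 limit.

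A Sirpa-rich, Cd4-poor bin held on average 1534 gene molecules in combination replicate 2 and 766 to 957 in the other 7 sections. False-positive codes, the 28 target names starting with FP, made up 0.251 to 0.572% of the molecules there. Of the 100 genes, 69 exceeded the 90th percentile of these codes in all 8 sections, 10 did so in none and 21 in some. The 10 genes most abundant on average over the sections took 74.9 to 80.4% of the molecules of a section. Sirpa alone took 18.1% in combination replicate 2 and 25.4 to 32.5% elsewhere.

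Among the genes that led baseline expression were Sirpa, its ligand Cd47, Crbn, the DNA methyltransferase genes Dnmt3a and Dnmt1, the angiogenic factor gene Vegfa, the transcription factor gene Stat3, and the sphingosine 1-phosphate receptor gene S1pr1. Levels here compare molecules of different probe sets, so the order among genes also carries differences in detection. Of 16 genes with at least 10 molecules per bin, 12 varied between sections by a coefficient of variation under 20%. Cd74, Stat3 and Ly6a were among the exceptions. A further 60 genes averaged under 1 molecule per bin.

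Cd47 had 129 and 135 molecules per bin in the combination sections, 108 and 142 with CpG-STAT3ASO, 151 and 119.1 with anti-PD1 and 111 and 118 with PBS. Dnmt3a had 40.96 and 42.7 in the combination sections, 34.7 and 41.01 with CpG-STAT3ASO, 41.7 and 36.3 with anti-PD1 and 34.7 and 42.4 with PBS. Crbn had 38.0 and 54.5 molecules per bin in the combination sections, 38.3 and 42.7 with CpG-STAT3ASO, 44.3 and 44.9 with anti-PD1 and 39.9 and 44.7 with PBS. For all 3 genes the ranges with and without CpG-STAT3ASO overlapped, and Crbn was highest in combination replicate 2.

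S1pr1, a receptor of endothelial cells and astrocytes among others, stood at 21.6 to 35.1 molecules per bin, and Vegfa at 31.5 to 42.5. The resident microglia genes on the panel are Csf1r, the receptor that microglia need for survival, and Tmem119. Csf1r had 25.7 and 27.1 molecules per bin in the combination sections, 23.9 and 22.0 with CpG-STAT3ASO, 20.8 and 19.3 with anti-PD1 and 19.7 and 29.1 with PBS. Tmem119 stood at 4.44 to 8.70, with its highest value in PBS replicate 2. The neutrophil gene Ly6g reached at most 0.0209 molecules per bin and did not exceed the false-positive codes in any section. The T cell receptor component Cd3d exceeded them in 1 section, combination replicate 2, at 0.204 molecules per bin, against 0.00339 to 0.0383 elsewhere.

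**Figure D2:**
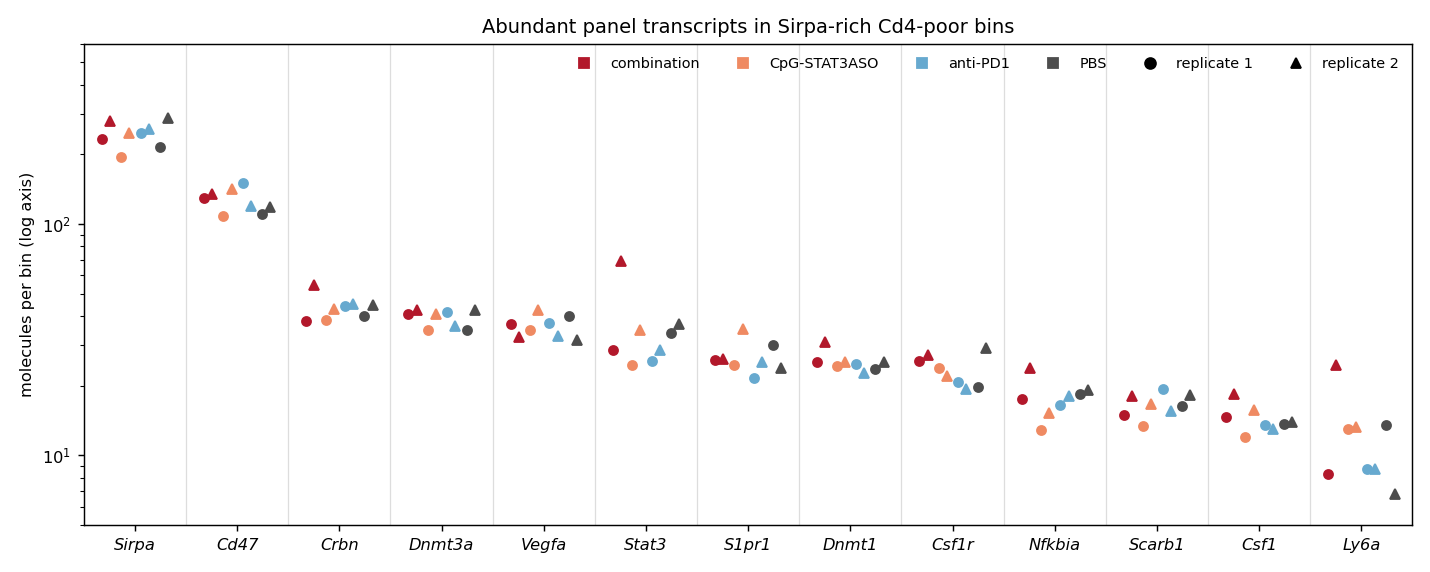
Molecules per bin (log axis) of abundant panel genes in the Sirpa-rich, Cd4-poor bins, 1 point per section, coloured by group and shaped by replicate. Most genes span a narrow range, such as 34.7 to 42.7 for Dnmt3a, while Stat3 and Ly6a are highest in combination replicate 2 (69.1 and 24.6).

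Within a section, a group of abundant genes varied together from bin to bin. Sirpa, Cd47, Dnmt1 and Dnmt3a followed Crbn, with Spearman correlations across bins of 0.78, 0.77, 0.75 and 0.73 (medians over 8 sections, each over 113 to 712 bins). With Sirpa, Cd47 stood at 0.83, Dnmt3a at 0.78 and Dnmt1 at 0.76. S1pr1 followed neither, at 0.08 with Crbn and 0.02 with Sirpa, and Csf1r stood at -0.06 and 0.03. Bins of a section come from the same piece of tissue and differ in tissue density, which all such correlations contain.

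The panel profile differed from that of the Cd4-rich bins, which met the same limits on Sirpa, macrophage, chemokine and proliferation genes. Of 48 genes outside the rule with at least 0.5 molecules per bin, 11 were higher than in the Cd4-rich bins of the same section in all 8 sections, 4 were lower in all 8, and 33 were mixed. The median log2 ratio of the 48 was -0.16. The 11 included Il12a, Flt3, Tox, Spp1, Batf3, Tert, Dnmt1, Dnmt3b, Rrm2 and Crbn, and the 4 were Irf8, Scarb1, Icos and Dnmt3a. Both kinds of bin were set by values measured in these same bins, so no test was made, and the genes named here were picked for their direction.

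Il12a, the p35 subunit of the cytokine IL-12, differed most, with a mean log2 ratio of 4.26. It had 2.95 and 1.16 molecules per bin in the combination sections, 3.08 and 3.43 with CpG-STAT3ASO, 2.02 and 2.48 with anti-PD1 and 4.09 and 1.82 with PBS. The Cd4-rich bins of the same sections held 0.0625 to 0.256. Sections with and without CpG-STAT3ASO overlapped in the Sirpa-rich, Cd4-poor bins. Il12b, the p40 subunit that completes IL-12, had 0.0 to 0.124 molecules per bin and exceeded the false-positive level in 1 section, CpG-STAT3ASO replicate 2. Il12a molecules were uneven inside the tissue. The 10% of bins with the most Il12a held 35.2 to 54.3% of its molecules.

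**Figure D3:**
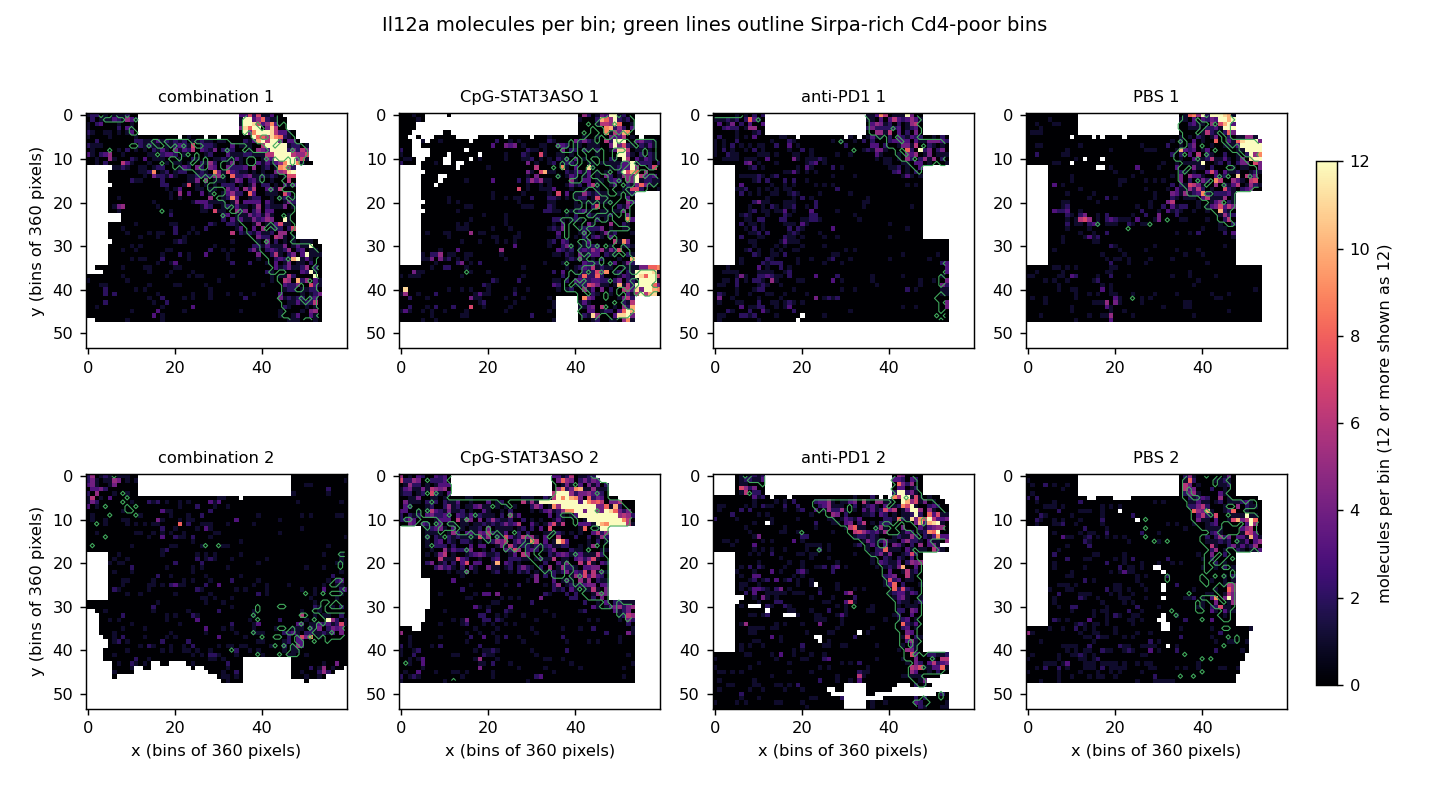
Il12a molecules per bin of 360 pixels in the 8 sections, on a colour scale that ends at 12, with the Sirpa-rich, Cd4-poor bins outlined in green and x and y in bins. Bins at the top of the scale form a patch or band within or beside the outline in combination replicate 1, both CpG-STAT3ASO sections and PBS replicate 1, and the mean inside the outline is lowest in combination replicate 2 (1.16).

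Flt3, a cytokine receptor gene of haematopoietic progenitors and dendritic cells, averaged 1.99 molecules per Sirpa-rich, Cd4-poor bin against 0.156 per Cd4-rich bin (mean log2 ratio 3.53). Among other genes of dendritic cells, Xcr1 had at most 0.0139 molecules per bin, and Itgax 0.136 to 3.54 with its highest value in combination replicate 2. Tox, a transcription factor gene used as a marker of exhausted T cells, averaged 0.915 against 0.134 (2.70), where Cd3d averaged 0.0389. Batf3, a transcription factor gene of conventional dendritic cells, averaged 2.98 against 0.986 (1.46). Spp1, which encodes the secreted protein osteopontin, averaged 3.56 against 1.06, and the 10% of bins with the most Spp1 held 79.8 to 93.7% of its molecules, so few bins carried most of it. Dnmt1 averaged 25.3 against 15.4 (0.72).

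Lower in the Sirpa-rich, Cd4-poor bins of all 8 sections were Irf8, a transcription factor gene of microglia and macrophages (5.39 against 11.5 molecules per bin, mean log2 ratio -1.07), and the lipoprotein receptor gene Scarb1 (16.6 against 25.2, -0.61). Dnmt3a was lower too (39.3 against 50.5, -0.36), in contrast to Dnmt1 and Dnmt3b.

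While most abundant genes varied little between sections, a set of interferon-linked genes varied widely. Cd274, which encodes the PD-1 ligand PD-L1, had 2.23 and 48.4 molecules per bin in the combination sections, 5.35 and 12.3 with CpG-STAT3ASO, 1.88 and 1.55 with anti-PD1 and 2.30 and 3.93 with PBS. Combination replicate 1 lay within the range of the sections without CpG-STAT3ASO, and the other 3 sections given CpG-STAT3ASO lay above that range.

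Ccl5, a chemokine gene, had 1.58 and 29.3 molecules per bin in the combination sections, 3.69 and 3.16 with CpG-STAT3ASO, 0.233 and 0.200 with anti-PD1 and 0.417 and 2.53 with PBS. All sections given CpG-STAT3ASO exceeded both anti-PD1 sections and PBS replicate 1, while PBS replicate 2 lay above combination replicate 1. Cd74, the invariant chain of MHC class II, had 5.91 and 163 molecules per bin in the combination sections, 16.4 and 38.1 with CpG-STAT3ASO, 15.2 and 5.17 with anti-PD1 and 12.9 and 64.9 with PBS. Its second highest section was PBS replicate 2, and the groups overlapped. Irf8 had 3.61 and 16.6 in the combination sections, 4.86 and 4.18 with CpG-STAT3ASO, 2.72 and 2.20 with anti-PD1 and 2.76 and 6.14 with PBS.

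Together these 4 genes, which were put together after their values were seen, took 1.65 and 16.8% of the molecules in the combination sections, 3.95 and 6.04% with CpG-STAT3ASO, 2.37 and 1.15% with anti-PD1 and 2.36 and 8.11% with PBS. The highest share was that of combination replicate 2, and combination replicate 1 lay within the range of the sections without CpG-STAT3ASO.

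**Figure D4:**
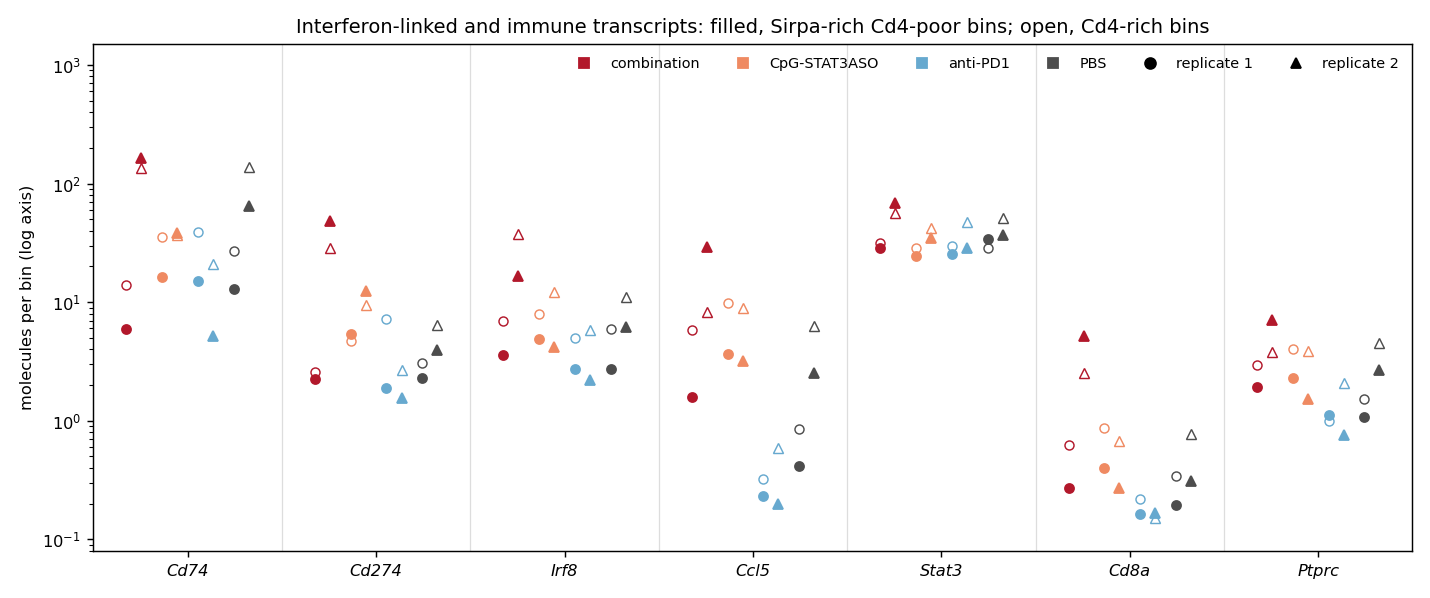
Molecules per bin (log axis) of interferon-linked and immune genes in the Sirpa-rich, Cd4-poor bins (filled) and the Cd4-rich bins (open), 1 point per section and bin class, coloured by group and shaped by replicate. In the filled points combination replicate 2 lies above combination replicate 1 for all 7 genes, with the largest ratios in Cd74 (163 and 5.91) and Cd274 (48.4 and 2.23).

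In molecules per bin, Cd8a and 3 sums of immune cell genes were also highest in combination replicate 2. Their part in the levels above was not tested. Cd8a, a gene of cytotoxic T cells, had 5.20 molecules per bin in combination replicate 2 and 0.164 to 0.404 in the other 7 sections. Of 14 listed cytotoxic and NK genes 10 are on the panel, and they summed to 0.718 and 6.97 molecules per bin in the combination sections, 0.702 and 0.787 with CpG-STAT3ASO, 0.428 and 0.439 with anti-PD1 and 0.814 and 0.962 with PBS. Of 12 monocyte and macrophage genes 8 are on the panel, Adgre1 and Cd68 included, and they summed to 11.4 and 28.7 in the combination sections, 14.5 and 8.98 with CpG-STAT3ASO, 7.14 and 6.33 with anti-PD1 and 6.13 and 8.95 with PBS. Without Adgre1 and Cd68, which chose the bins, the other 6 summed to 3.93 and 17.03 in the combination sections, 7.18 and 3.66 with CpG-STAT3ASO, 3.68 and 2.70 with anti-PD1 and 2.53 and 3.20 with PBS. Tgfbi alone gave 12.1 of the 17.03 in combination replicate 2. Not all 6 were highest in that section, and Mrc1 was lowest there, at 0.0619 against 0.288 to 0.761 elsewhere. Combination replicate 2 was highest both in the sum of the 8 macrophage genes per bin and in the share of the 4 interferon-linked genes. These are unlike measures, since the sum per bin is not scaled to the molecules a bin holds. Combination replicate 1 had the third highest such sum and the second lowest share. Whether sum and share go together over the sections was not tested. The pan-leukocyte genes Ptprc, Csf2rb and Il16 summed to 11.98 in combination replicate 2 and 2.31 to 5.54 elsewhere, and Csf2rb is also among the 6 macrophage genes. Combination replicate 2 was the highest section for all 3 lists. In the bins without a single molecule of Cd8a, Cd3d, Nkg7 or Ptprc, Cd274 stood at 30.2 per bin in combination replicate 2 (11 bins) and at 1.86 in combination replicate 1 (223 bins). In the other 6 sections such bins held 1.20 to 9.67. Fewer cells of a type and less RNA per cell cannot be told apart in bins.

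In both CpG-STAT3ASO sections Cd274 was higher near bins rich in Cxcl9 and Cxcl10 (30 or more molecules) than far from them. At 1 to 3 bins from them, Cd274 had 18.3 molecules per bin in CpG-STAT3ASO replicate 2 (257 bins), and 4.48 at 10 or more bins (171 bins). In CpG-STAT3ASO replicate 1 it had 8.36 (144 bins) and 3.41 (114 bins) at these distances. The difference was small in combination replicate 1, with 2.41 near (80 bins) and 2.09 far (205 bins), and in anti-PD1 replicate 2, with 1.42 near (121 bins) and 1.36 far (45 bins). In anti-PD1 replicate 1 it had 8.17 near, in only 6 bins, and 1.11 far (72 bins), and in PBS replicate 1 it had 2.54 near (129 bins) and 2 far (19 bins). PBS replicate 2 had 4.65 near (188 bins) and 2.57 in its other 99 bins, none of them 10 or more away. In combination replicate 2, where 107 of 113 bins lay within 3 bins of such bins, Cd274 had 50.3 molecules per bin there and 15.3 in the other 6 bins, and no bin lay 10 or more away.

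Promoter windows of interferon-linked genes are shown because a motif of interferon-responsive promoters, the GAS element (TTCNNNGAA on either strand), was searched in them. Of Cd274, Irf8 and Ccl5, looked up by symbol, Cd274 and Irf8 matched. The windows run from 250 bases before to 50 after the gene start in RefSeq on GRCm38.p6. Irf8 has 2 listed starts. The window of the first (chr8:120736108-120736407, plus strand) holds 2 GAS matches, shown in capitals, that begin at -171 and -153 relative to the start and do not overlap. The second Irf8 window and that of Cd274 (chr19:29367188-29367487, plus strand) hold no match. The windows of Il12a and Crbn, searched as well, hold none either, and Cd74 was not searched. The motif is present in 8.30% of all 32851 windows, and a match in letters does not show binding.
Irf8, first start: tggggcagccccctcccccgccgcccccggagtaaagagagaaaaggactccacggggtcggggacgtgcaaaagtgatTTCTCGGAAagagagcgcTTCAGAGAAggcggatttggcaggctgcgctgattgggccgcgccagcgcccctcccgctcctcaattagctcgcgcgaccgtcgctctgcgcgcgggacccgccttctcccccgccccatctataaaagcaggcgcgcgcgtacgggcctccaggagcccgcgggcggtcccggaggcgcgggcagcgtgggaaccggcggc
Cd274: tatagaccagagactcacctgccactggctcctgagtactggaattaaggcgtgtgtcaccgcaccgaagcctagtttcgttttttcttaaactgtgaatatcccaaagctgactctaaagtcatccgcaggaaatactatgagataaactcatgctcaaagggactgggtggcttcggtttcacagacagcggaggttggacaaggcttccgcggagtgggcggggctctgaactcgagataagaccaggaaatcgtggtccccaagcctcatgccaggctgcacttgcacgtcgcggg

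Treatment was compared on each gene's share of the molecules of the 92 genes outside the rule, as log2(CPM + 1), by limma over the 8 sections with Benjamini-Hochberg adjustment. For the 82 genes averaging 10 or more molecules a section, CpG-STAT3ASO averaged over anti-PD1 gave 0 called genes (0% of those tested) at an adjusted p of 0.05, 0 by limma's voom as well, and 7 at an unadjusted p under 0.05. The 7 included Ccl5, Cd274, Klrd1 and Il2ra, which were higher, and Il23a and Il6, which were lower. Ccl5 stood at 2794 and 23836 CPM in the combination sections and at 6589 and 4511 with CpG-STAT3ASO, against 394 and 378 with anti-PD1 and 750 and 3824 with PBS. Its log2 difference was 3.04 (SE 0.769, 95% interval 1.23 to 4.85, limma adjusted p = 0.416). Cd274 differed by 1.71 (SE 0.686, limma adjusted p = 0.423), with levels of 3943 and 39372 CPM in the combination sections and 9549 and 17596 with CpG-STAT3ASO, against 3184 and 2938 with anti-PD1 and 4135 and 5955 with PBS. In both genes 1 section given CpG-STAT3ASO, combination replicate 1, lay below PBS replicate 2.

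By share, Il6 and Il23a had groups that did not overlap, which is a description of genes picked for their small p. Scarb1 separated by share too, at 14659 to 26486 CPM with CpG-STAT3ASO against 27677 to 32842 without. In molecules per bin the groups overlapped for Il6 and Il23a. Il23a was at 0.0680 to 0.150 with CpG-STAT3ASO against 0.0830 to 0.239 without, and Il6 at 0.0178 to 0.0354 against 0.0339 to 0.0503. Other genes separated per bin, among them Gpnmb (0.984 to 1.92 against 0.509 to 0.973) and Dnmt3b (0.631 to 0.752 against 0.458 to 0.516). By share both overlapped, Gpnmb at 1431 to 2960 CPM against 863 to 1750 and Dnmt3b at 611 to 1297 against 749 to 978. Scarb1, Gpnmb and Dnmt3b thus separated on 1 of the measures as well, so separation is not particular to Il6 and Il23a. The share of separated genes among all those tested is not given here, so these genes cannot be set against it. Il23a, a subunit of the cytokine IL-23, stood at 120 and 122 CPM in the combination sections and at 134 and 130 with CpG-STAT3ASO, against 405 and 157 with anti-PD1 and 287 and 248 with PBS (log2 difference -1.03, limma adjusted p = 0.416). These values rest on 17 to 65 molecules per section. Il6 rested on 4 to 22 molecules per section, at or below the false-positive level throughout. Klrd1, an NK receptor gene, exceeded it in 2 sections, and its log2 difference was 1.62 (limma adjusted p = 0.416).

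Stat3, the target of the antisense part, stood at 50249 and 56182 CPM in the combination sections and at 43942 and 49467 with CpG-STAT3ASO, against 43395 and 53908 with anti-PD1 and 60901 and 55898 with PBS. Both PBS sections lay above both CpG-STAT3ASO and both anti-PD1 sections, and the combination range reached into that of PBS. The log2 difference with CpG-STAT3ASO was -0.09 by share (95% interval -0.56 to 0.38, limma adjusted p = 0.774) and 0.22 per bin. Tlr9, the receptor of CpG DNA, differed by 0.68 (SE 0.345, adjusted p = 0.423 in limma). Its level was 0.879 and 1.96 molecules per bin in the combination sections, 1.08 and 0.740 with CpG-STAT3ASO, 0.434 and 0.431 with anti-PD1 and 0.434 and 1.06 with PBS.

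Irf8 differed by 0.58 with CpG-STAT3ASO (95% interval -0.26 to 1.43) and Cd74 by 0.48 (-1.56 to 2.53), and neither passed (limma adjusted p = 0.52 and 0.767). Crbn differed by -0.33 by share (95% interval -0.84 to 0.18) and by -0.02 per bin, and Cd47 by -0.27 and 0.05, so the sign of Cd47 turned with the scaling. The median difference of all 82 genes was 0.17 by share, 0.49 per bin and 0.07 by median-of-ratios scaling, with 47, 69 and 43 genes higher. Il12a differed by -0.32 by share (95% interval -1.70 to 1.06) and Tox by -0.40 (-1.14 to 0.35).

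**Figure D5:**
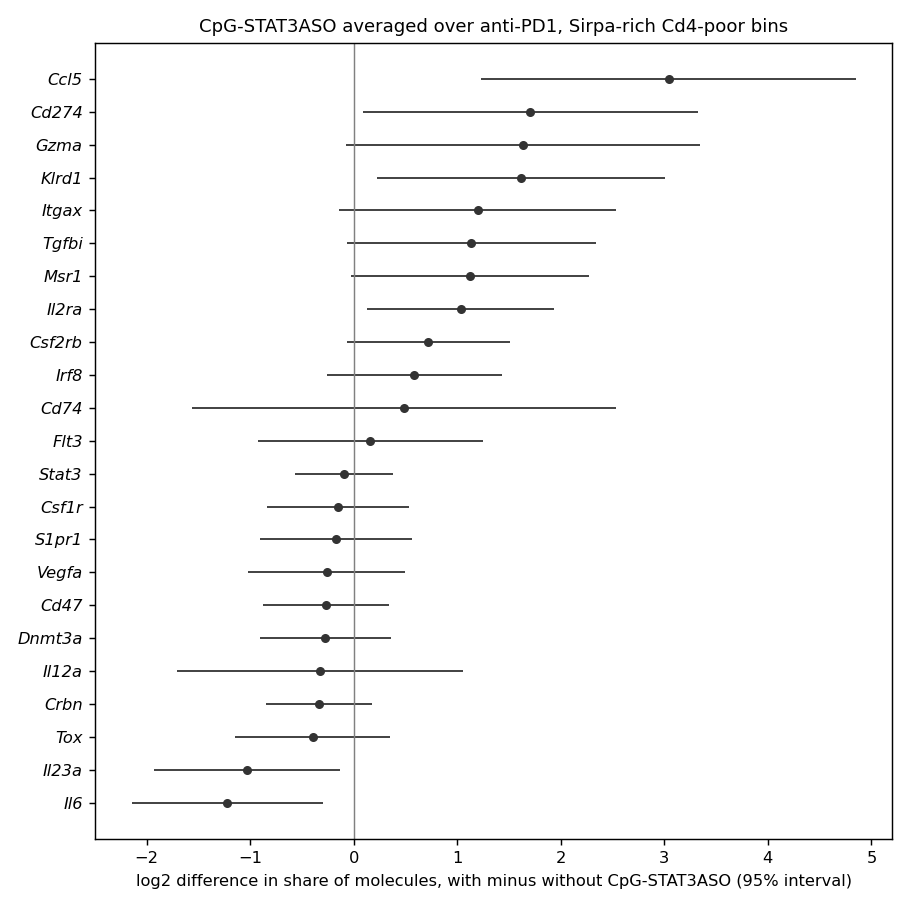
Log2 difference in share of molecules with minus without CpG-STAT3ASO for genes of small p and others named here in the Sirpa-rich, Cd4-poor bins, averaged over anti-PD1 (points) with 95% intervals from limma, over 4 sections with and 4 without. Ccl5 has the largest value (3.04), Crbn lies at -0.33, and no gene passes after adjustment, although 6 of the intervals shown exclude 0.

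By list, CpG-STAT3ASO was described by counts and medians of the share, beside a median of 0.17 over all 82 genes, and 0 members were called in every list. Of 9 tested cytotoxic and NK genes 9 were higher (median 0.69). This count turned on combination replicate 2, without which 6 of 8 were higher (0.12), and with CpG-STAT3ASO alone against PBS 2 of 9 were higher (-0.23). Several of these genes rested on few molecules. Fasl exceeded the false-positive level in all 8 sections, but Nkg7 did so in 5, Gzma in 4 and Klrd1 in 2. Of 6 tested chemokine and chemokine receptor genes 6 were higher (0.68), or 5 by median-of-ratios scaling and 4 without combination replicate 1. Of 5 dendritic cell genes 5 were higher (0.39), or 4 by median-of-ratios scaling and 3 without combination replicate 1, of 6 monocyte and macrophage genes 4 (0.92) and of 4 T cell genes 3 (0.80). Of 7 genes of Tlr and NF-kB inflammation 3 were higher (-0.04), with Tlr9 at 0.68 and the inhibitor gene Nfkbia at -0.40. The per-bin scaling gave a median of 0.49 over all genes, against 0.17 by share, and moved those of the lists by a like amount, so medians near 0 changed sign with it. Of 4 listed brain parenchyma genes outside the rule (Cd47, S1pr1, Crbn and Fabp5) 0 were higher by share (-0.22) and 3 per bin (0.09), and the per-bin median lay below that of all genes. The same held for the microglia genes Csf1r and Tmem119 (-0.21 by share, 0.10 per bin) and for 3 genes of the Stat3 pathway (-0.26 and 0.05). Without combination replicate 2, 2 of the 4 brain parenchyma genes were higher by share (0.05) and 1 of the 2 microglia genes (0.04). The list counts without a combination section were added after the data were seen.

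The single comparisons gave no called gene either. CpG-STAT3ASO alone against PBS gave 0 of 82 (0%) by limma and by voom, with 0 at an unadjusted p under 0.05. There Ccl5 stood at 1.69 (95% interval -0.88 to 4.25), Cd274 at 1.39 (-0.90 to 3.67) and Stat3 at -0.32 (-0.99 to 0.34). The combination against PBS gave 0 of 82 (0%) by both tools, with 2 at an unadjusted p under 0.05 by limma. These were the extracellular matrix gene Tgfbi (log2 difference 1.75, SE 0.723) and the interleukin-2 receptor gene Il2ra (1.29, SE 0.541), both with a limma adjusted p of 0.771. Tgfbi had 1.73 and 12.1 molecules per bin in the combination sections, against 1.16 and 0.836 with PBS.

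Anti-PD1 against PBS gave 0 of 82 (0%) by both tools, with 1 at an unadjusted p under 0.05 by limma. This was Foxp3 (-1.68, limma adjusted p = 0.897), the regulatory T cell transcription factor gene, which rested on 5 and 10 molecules with anti-PD1 and 16 and 41 with PBS, and exceeded the false-positive level in only 1 of these 4 sections. Crbn stood at 0.20 (95% interval -0.52 to 0.92). Anti-PD1 averaged over CpG-STAT3ASO gave 0 of 82 (0%) by both tools and 0 at an unadjusted p under 0.05. By share 25 of the 82 genes were higher (median -0.10), and per bin 47 (0.05), with Flt3 at -0.90 and Tox at -0.61 by share. The interaction of both agents gave 0 of 82 (0%) by both tools, with 2 at an unadjusted p under 0.05 by limma, Foxp3 at 2.77 and the granzyme gene Gzma at 3.74 (limma adjusted p = 0.722 each). These comparisons share sections: PBS enters the 3 comparisons against it, and combination replicate 2 enters each estimate that uses the combination.

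Results of the combination turned on which of its 2 sections was kept. Without combination replicate 1, limma called 13 of 82 genes for CpG-STAT3ASO on average (6 higher, 7 lower), 18 for the combination against PBS (8 higher, 10 lower) and 14 for the interaction. Those calls rest on combination replicate 2 as the only combination section, which is then assumed to vary like the other groups. Among them Cd8a was higher by 3.37 in the combination against PBS (limma adjusted p = 0.00578) and Cd274 by 2.99. Cd47 (-0.78) and Crbn (-0.65) were lower by share, although in molecules per bin combination replicate 2 was above both PBS sections for both genes. Without combination replicate 2 no gene was called in any of these comparisons.

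The effect of CpG-STAT3ASO here and in the Cd4-rich bins was compared on the within-section difference of log2 CPM. Of 81 genes 0 were called (0%), with 6 at an unadjusted p under 0.05 by limma, and voom was not run here. The 6 included the chemokine gene Ccl22 (-1.16, adjusted p = 0.197), Cd274 (1.13, adjusted p = 0.425) and the costimulatory receptor gene Cd28 (-1.34, adjusted p = 0.425). In the Sirpa-rich, Cd4-poor bins Cd274 had 2.23 molecules per bin against 2.59 in the Cd4-rich bins in combination replicate 1, 48.4 against 28.6 in combination replicate 2, 5.35 against 4.67 in CpG-STAT3ASO replicate 1 and 12.3 against 9.48 in CpG-STAT3ASO replicate 2. Without CpG-STAT3ASO it had 1.88 against 7.22 in anti-PD1 replicate 1, 1.55 against 2.66 in anti-PD1 replicate 2, 2.30 against 3.07 in PBS replicate 1 and 3.93 against 6.47 in PBS replicate 2. Only sections given CpG-STAT3ASO, 3 of the 4, had a higher Cd274 level in the Sirpa-rich, Cd4-poor bins. Without combination replicate 2, Cd28 was called lower (-1.79, adjusted p = 0.0232).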

How the data were processed

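Per the labels, the sections were measured by a Resolve single-molecule assay of a 100-gene panel. Each row of the deposited files is 1 molecule with its position and target as called by the authors, with no other value. Seurat 4.2.0 appears in the submitters' processing notes with no role, and how molecules were called is not stated. Molecules were counted per gene and per 360-pixel bin, and summed over the chosen bins of each section. Sections held 1664837 to 6987530 gene molecules, and the chosen bins 134249 to 681667. The 28 codes whose names start with FP were taken as false positives, which no label states, and were left out. Bins, members and gene lists were chosen with earlier results of these data known. Sections were grouped by their titles.

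Shares were CPM over the 92 genes outside the rule, as log2(CPM + 1). Genes with a mean of 10 or more molecules per section were fitted with limma 3.58.1 in R 4.3.3 (lmFit, eBayes with trend, 4 group means and contrasts, two-sided). P-values were Benjamini-Hochberg adjusted over all genes tested, with a threshold of 0.05. The average effect of CpG-STAT3ASO sets 4 sections with against 4 without. The fit was tested on simulated data. Alternatives covered scaling, pseudocount, filter, voom, no trend, replicate block, each section left out, the limits, the grid, and distance from dense bins.

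Some panel genes, kept in all counts, totals and fits, are not reported here. Genes named follow a rule: the 25 most abundant, those of the rule, a set list, the 3 genes most correlated with Crbn or Sirpa, and the top 3 of each of 19 lists (83 of 179 listed genes are on the panel). Other genes named were chosen after their values were seen.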

Additional observations from a re-analysis of the deposited data

Results flagged for a closer look

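For 32 named genes outside the rule with at least 1 molecule per bin, each examined in the 4 sections with and the 4 without CpG-STAT3ASO, 17 of 64 sets of 4 held a section far from the other 3. The cut-off flags about 1 in 20 sets of 4 values drawn from 1 normal distribution. Each set here pools 2 treatment groups of molecules per bin, so that rate need not hold for them. The sets are not independent, since each section enters 32 of them. With CpG-STAT3ASO, combination replicate 2 stood highest for Ccl5 (29.3 molecules per bin), Irf8 (16.6), Ptprc (7.08), Tgfb1 (7.35), Ikzf2 (6.18), Il16 (2.88) and Dnmt1 (30.8), and lowest for Stat6 (6.58). Bins there held 1534 gene molecules on average, against 766 to 957 in the other 7 sections. By share, Ccl5 (23836 CPM), Irf8 (13529) and Ptprc (5754) stayed highest there. Ikzf2 (5020) and Il16 (2345) lay within the range of the other sections. Dnmt1 (25009 against 36103 to 44859) and Tgfb1 (5977 against 6741 to 8613) were lowest there by share. CpG-STAT3ASO replicate 1 stood highest for Flt3 (3.55), and CpG-STAT3ASO replicate 2 for S1pr1 (35.1).

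Without CpG-STAT3ASO, PBS replicate 2 stood highest for Cd74 (64.9 molecules per bin), Csf1r (29.1), Irf8 (6.14), Ccl5 (2.53) and Csf2rb (1.22). PBS replicate 1 stood highest for Flt3 (3.17) and lowest for Crbn (39.9).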

How the results depend on the processing

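All 7 comparisons gave 0 called genes under every alternative run, with 4 exceptions, each from leaving out 1 combination section. The counts ran from 0 to 13 for CpG-STAT3ASO on average, 0 to 14 for the interaction and 0 to 18 for the combination against PBS, the highest in each without combination replicate 1, and from 0 to 1 for the difference from Cd4-rich bins, without combination replicate 2. Among single genes, the averaged CpG-STAT3ASO difference turned in sign for Stat3 (0.0017 by CPM over all 100 genes, 0.22 per bin), for Cd47 (0.047 per bin), for Cd74 (-0.04 without PBS replicate 1, -0.43 to 1.40 over the sections left out) and for Il12a (0.03 without PBS replicate 1, -0.94 to 0.29 over the sections left out). Of these 4 only Cd47 passed under any alternative, lower by share without combination replicate 1 (-0.53). Same-numbered sections did not pair: correlations of their deviations ran from -0.22 to 0.43 over the 6 pairs of groups. The replicate block gave 0 calls in each comparison (smallest limma adjusted p for CpG-STAT3ASO on average 0.148). Voom was not run for the difference from Cd4-rich bins.

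Levels followed the limits of the rule: with a limit of 150 Sirpa molecules Crbn was 49.3 and Cd47 144 per bin, and with 180-pixel bins and limits divided by 4 they were 50.3 and 147 per area of a 360-pixel bin. The share of tissue bins ran from 13.9 to 19.2% over the limits, against 17.6%. Each group had 2 sections, combination replicate 2 had 113 bins, and a section held at most 65 molecules of Il6, Il23a or Klrd1. Small differences were thus not detectable. Large estimated differences did not pass over all sections either, such as those of Ccl5 and Cd274 with CpG-STAT3ASO averaged over anti-PD1. The lack of called genes is therefore no evidence that large differences were absent.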
